A study of Mus musculus with 12 samples.

Results

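Acod1 encodes the enzyme that makes itaconate, and Slc13a3 encodes a sodium-coupled carrier that moves dicarboxylates, itaconate among them, across the cell membrane. The pair was chosen by name, as 2 of the 52636 genes counted in cultured mouse microglia, with their levels in these libraries already known. Their values are therefore given as a description, with no test. Both were among the 14687 genes with enough reads to be tested: the library with the fewest reads of the gene held 556 for Acod1 and 652 for Slc13a3.

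Acod1 works in the mitochondrial matrix, where it takes a carboxyl group from cis-aconitate, an intermediate of the tricarboxylic acid (TCA) cycle, and so turns it into itaconate. Macrophages are known to switch the gene on after Toll-like receptor and interferon signals. Itaconate is known to slow succinate dehydrogenase and to modify cysteines of proteins such as KEAP1, which otherwise holds back the transcription factor NRF2. Slc13a3 takes up succinate, 2-oxoglutarate and related acids and is best known from the kidney and, in the brain, from astrocytes.

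RNA was sequenced from primary microglia, macrophages of the brain itself, that had spent 24 h with full-length NfL (5 µg), with coiled-coil NfL (5 µg) or with vehicle, 4 libraries in each case. NfL, neurofilament light chain, belongs to the axonal skeleton, and the coiled-coil form is named for its central rod. The design asks what NfL added from outside does to microglia. All 3 groups were present once in each of 4 batches, and replicate numbers are batch numbers. In all 3 groups the cells were wild type (WT) of the strain C57BL/6, came from the brains of pups 1 to 2 days old, and were shaken off mixed cultures after 10 to 13 days. All groups also received 2.5 ng of the growth factor CSF1 per well of 50000 cells, in medium with serum, and were used 2 to 4 days after plating. The labels do not say whether the batches were separate cultures or litters, so the p-values cover only a spread between samples that may be technical.

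Total counts per library ran from 20162427 to 31048044. All 10 microglial markers were tested, and their summed level was 11758 to 13524 CPM (read counts scaled by library total and edgeR's TMM factors) with full-length NfL, 12416 to 14739 with coiled-coil NfL and 12426 to 16183 with vehicle. With full-length NfL against vehicle, 1 of the 10 rose and 4 fell by edgeR (adjusted over all genes), and 1 of 10 astrocyte and 3 of 7 tested border macrophage markers fell, beside 24.9% of all tested genes called (14% higher, 10.9% lower). Astrocyte markers summed to 24.0 to 38.0 CPM with full-length NfL, 24.3 to 53.2 with coiled-coil NfL and 26.1 to 58.8 with vehicle. Summed levels of border macrophage markers were 382 to 697, 566 to 1176 and 750 to 1390 CPM in the same order of groups, and those of fibroblast markers were 67.6 to 519, 133 to 1487 and 240 to 1400 CPM. Neutrophil markers, from cells that also make Acod1, summed to 100 to 136, 102 to 139 and 96.9 to 152 CPM, and S100a9 and Mpo were at 0 in all 12 libraries. Csf3r carried most of the neutrophil sum, with means of 111 CPM with full-length NfL, 118 with coiled-coil NfL and 110 with vehicle, followed by Mmp8 at 5.32, 5.46 and 7.10 CPM. Most of the fibroblast sum was Fn1, at 220, 511 and 608 CPM, while Col1a1, Col1a2, Col3a1 and Dcn each averaged under 1 CPM in every group. Neuronal markers summed to 8.87 to 28.5, 14.6 to 44.1 and 17.8 to 59.4 CPM, oligodendrocyte markers to 243 to 260, 240 to 283 and 226 to 276 CPM, and markers of choroid plexus and ependyma to 0.126 to 66.4, 0.307 to 2.37 and 0.477 to 46.6 CPM. Cnp (means 149, 123 and 110 CPM) and Mbp (74.3, 98.5 and 104 CPM) made up most of the oligodendrocyte sum. Against vehicle, 2 of 7 tested neuronal markers fell with full-length NfL and 1 of 8 tested oligodendrocyte markers rose, while 0 of 5 fibroblast, 0 of 3 neutrophil and 0 of 2 choroid plexus markers tested were called by edgeR. With batch number as a block in the fit, which called 43.8% of all tested genes (21.4% higher, 22.4% lower), 8 of 10 astrocyte, 7 of 7 neuronal and 2 of 5 fibroblast markers fell. In that fit 2 of 8 oligodendrocyte markers rose and 4 fell, 1 of 7 border macrophage markers rose and 4 fell, 3 of 10 microglial markers rose and 4 fell, and 0 neutrophil or choroid plexus markers were called. The part of these lists in the results was not tested. In bulk RNA, fewer cells of a type and less RNA per cell cannot be told apart.

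Acod1 was higher with full-length NfL than in either of the other groups, and Slc13a3 was so by a larger fold. With full-length NfL, Slc13a3 was the most abundant of 211 solute carrier genes per kilobase of exon in every library, whereas 3 of the 4 vehicle libraries held 28.2 to 30.0 CPM of it. The mean with coiled-coil NfL lay between those of the other groups for both genes, and its libraries overlapped with vehicle. The gene Acod1 (ENSMUSG00000022126) lies on the plus strand at chr14:103046977-103056573 of GRCm38, and Slc13a3 (ENSMUSG00000018459) on the minus strand at chr2:165405028-165473230.

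Acod1 stood at 231, 305, 431 and 246 CPM in batches 1 to 4 with full-length NfL, at 66.8, 137, 130 and 143 CPM with coiled-coil NfL and at 85.8, 36.3, 107 and 24.0 CPM with vehicle. All 4 full-length libraries lay above all 8 others, while the coiled-coil and vehicle libraries overlapped. Vehicle was uneven: batches 1 and 3 were high, and batches 2 and 4 were low. The means were 303 ± 90.8 CPM with full-length NfL, 119 ± 35.2 CPM with coiled-coil NfL and 63.4 ± 39.7 CPM with vehicle (SD, n = 4 each). In edgeR's fit the log2 fold change was 2.26 ± 0.43 (SE) for full-length NfL over vehicle, a fold of 4.78. It was 0.91 ± 0.42 for coiled-coil NfL over vehicle and 1.35 ± 0.42 for full-length over coiled-coil NfL.

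Slc13a3 stood at 2814, 4047, 963 and 2794 CPM in batches 1 to 4 with full-length NfL, at 268, 725, 171 and 624 CPM with coiled-coil NfL and at 358, 30.0, 29.2 and 28.2 CPM with vehicle. Again all 4 full-length libraries lay above all 8 others. Among vehicle libraries, the one of batch 1 stood far above the other 3, and above 2 of the 4 coiled-coil libraries. The means were 2654 ± 1271 CPM with full-length NfL, 447 ± 269 CPM with coiled-coil NfL and 111 ± 164 CPM with vehicle (SD, n = 4 each). The log2 fold change was 4.58 ± 0.96 (SE) for full-length NfL over vehicle, a fold of 23.9. It was 2.01 ± 0.86 for coiled-coil NfL over vehicle, a fold of 4.02, and 2.57 ± 0.87 for full-length over coiled-coil NfL, a fold of 5.93. Without vehicle replicate 1 the fold over vehicle was 91.2 for full-length NfL and 15.4 for coiled-coil NfL. A fit with the replicate block put the fold of coiled-coil NfL over vehicle at 6.09.

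**Figure D1:**
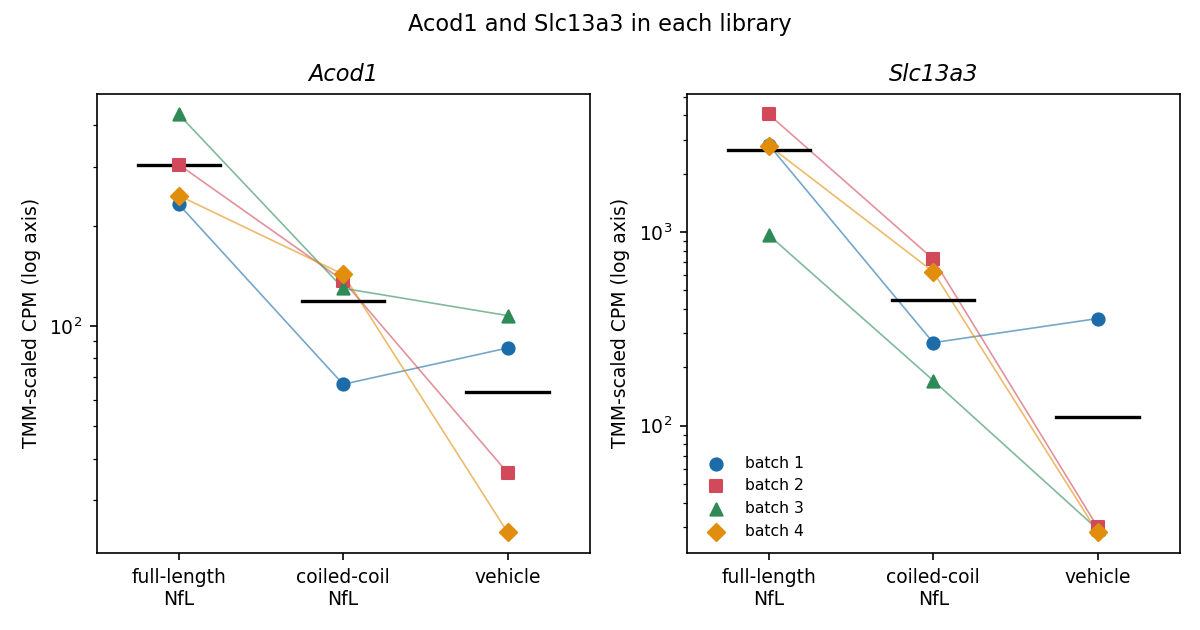
TMM-scaled CPM (log axis) of Acod1 and Slc13a3 in each of the 12 libraries, by group, with a marker and a joining line per batch and a black bar at the group mean. The 4 full-length libraries lie above all others for both genes, and vehicle replicate 1 stands at 358 CPM of Slc13a3 against 28.2 to 30.0 CPM in the other vehicle libraries.

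The gap between groups was wide for full-length NfL over vehicle: the lowest full-length library was 2.16-fold above the highest vehicle library for Acod1 and 2.69-fold for Slc13a3. Over coiled-coil NfL the same ratio was 1.62 and 1.33. Of all tested genes, 14.5% had every full-length library above every vehicle library, 7.46% had every full-length library above every coiled-coil library, and 1.42% had every coiled-coil library above every vehicle library. Both genes belong to the first and second of these sets and neither to the third, which the choice of the genes fixes in part. Both NfL groups were set against the same vehicle libraries.

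Within batches, full-length NfL gave 2.70, 8.40, 4.01 and 10.2 times the vehicle level of Acod1 in batches 1 to 4, and 7.87, 135, 33.0 and 99.1 times that of Slc13a3. Batch 1 had the smallest ratio and batches 2 and 4 the largest for both genes. Coiled-coil NfL gave 0.779, 3.77, 1.21 and 5.94 times the vehicle level of Acod1, and 0.751, 24.2, 5.86 and 22.1 times that of Slc13a3. In batch 1 both genes were thus below vehicle with coiled-coil NfL, and in the other 3 batches both were above it. Full-length over coiled-coil NfL varied least: 3.46, 2.23, 3.32 and 1.72 for Acod1 and 10.5, 5.58, 5.63 and 4.48 for Slc13a3.

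**Figure D2:**
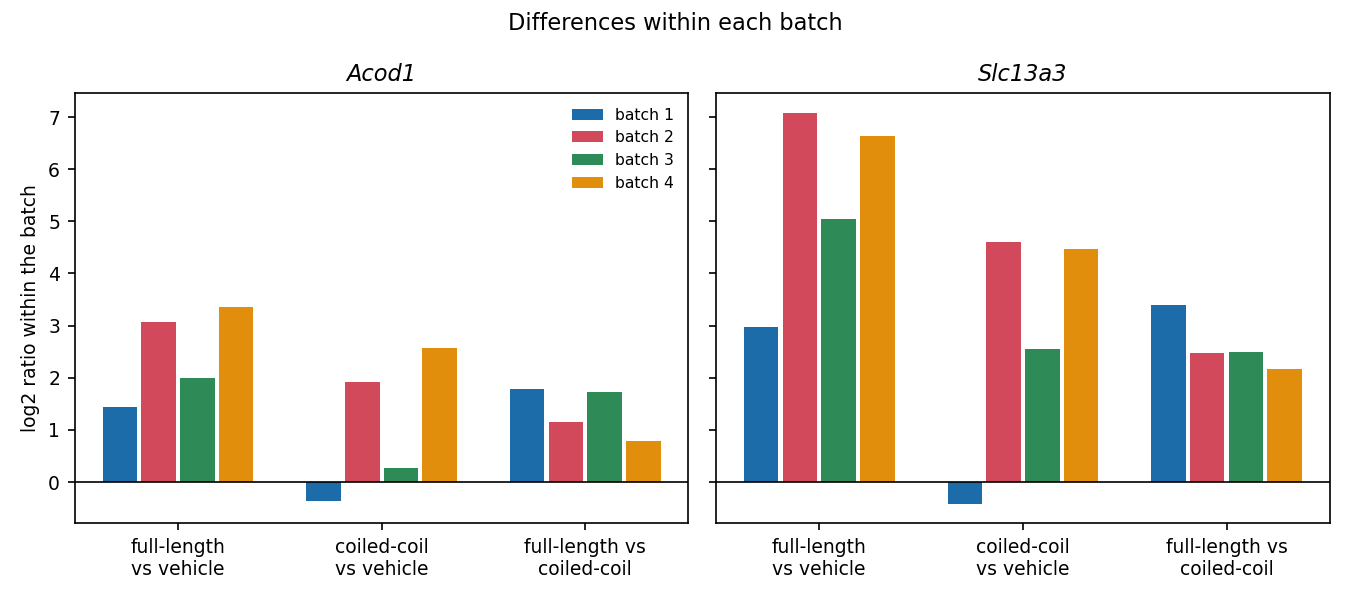
Log2 ratio of CPM between libraries of the same batch for Acod1 and Slc13a3, as 1 bar per batch, with 0 meaning equal levels. Full-length NfL is above vehicle and above coiled-coil NfL in all 4 batches, and coiled-coil NfL is below vehicle in batch 1 only.

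Of the variance of log2 CPM over the 12 libraries, the group accounted for 73.4% for Acod1 and 79.5% for Slc13a3, the batch for 8.95% and 8.08%, and 17.6% and 12.4% were left. Vehicle replicate 1, the high one for Slc13a3, was the highest vehicle library for 23% of the 2062 genes that rose with full-length NfL, against 26.4% of all tested genes, whereas vehicle replicate 3 was highest for 55.5% of them, against 35.7%.

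The members did not keep a fixed ratio. Per kilobase of exon, Slc13a3 over Acod1 was 6.11, 6.68, 1.12 and 5.72 in batches 1 to 4 with full-length NfL, 2.02, 2.67, 0.664 and 2.20 with coiled-coil NfL and 2.10, 0.416, 0.137 and 0.590 with vehicle. Batch 3 had the lowest ratio in each group. With full-length NfL it held the highest Acod1 and the lowest Slc13a3 of the 4 libraries. By CPM per kilobase, Slc13a3 ranked 47, 36, 190 and 48 among 14665 tested genes with a length in full-length batches 1 to 4, and 733, 234, 1385 and 280 in coiled-coil batches. In vehicle it ranked 511 in batch 1 and 6036 to 6310 in the others. Among the 211 solute carrier genes it was first in each full-length library, 2 to 20 with coiled-coil NfL and 9 to 105 with vehicle. Acod1 ranked 218 to 403 with full-length NfL, 723 to 1706 with coiled-coil NfL and 1091 to 4395 with vehicle on the same scale.

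The stretches upstream of both genes are shown because both were high in the same 4 libraries. They come from RefSeq promoters of GRCm38.p6, which reach 250 bases before and 50 after the RefSeq start, and end where the GENCODE M21 transcript begins, at chr14:103046762-103046976 on the plus strand for Acod1 and chr2:165473231-165473447 on the minus strand for Slc13a3. Capitals mark the motif matches named next, 5′ to 3′.
Acod1: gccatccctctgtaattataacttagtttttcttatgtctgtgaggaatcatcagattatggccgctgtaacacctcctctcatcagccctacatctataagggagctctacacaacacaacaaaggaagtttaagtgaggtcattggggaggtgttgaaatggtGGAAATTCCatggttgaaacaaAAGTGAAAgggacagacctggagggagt
Slc13a3: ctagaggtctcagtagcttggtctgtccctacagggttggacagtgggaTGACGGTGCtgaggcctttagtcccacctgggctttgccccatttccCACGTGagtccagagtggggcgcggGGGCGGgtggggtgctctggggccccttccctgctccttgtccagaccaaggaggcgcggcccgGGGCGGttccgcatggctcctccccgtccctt

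The pair shared none of the 8 motifs searched. The motifs were searched for on both strands, were picked after the promoters had been read, and a match is a description of letters and not a site. Counting back from the RefSeq start, the Acod1 window held the NF-kB-like GGANNTTCC at −85 to −77, the interferon regulatory factor core AANNGAAA at −63 to −56 and a TATAAA at −28 to −23, past the stretch printed. Of all 32807 promoters of the same length, 4.26% held GGANNTTCC, 23.9% AANNGAAA and 13.6% TATAAA. In the Slc13a3 window TGACNNNGC, the core of the antioxidant response element, lay at −201 to −193, the E-box CACGTG at −154 to −149, and the GC box GGGCGG at −129 to −124 and −65 to −60. These occurred in 12.4%, 7.15% and 35.6% of all promoters. No match of 1 motif overlapped a match of another motif. CACGTG reads the same on both strands and was counted once. GGANNTTCC does not, but the stretch GGAAATTCC at −85 to −77 matched it on both strands. Neither window held the STAT motif TTCNNNGAA or the AP-1 motif TGANTCA, which 8.29% and 7.82% of promoters held. The GC content of the window was 47% for Acod1, with 2 CpG dinucleotides, and 69.3% for Slc13a3, with 22, against medians of 52.7% and 7 CpG over all promoters.

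Genes whose profiles over the 12 libraries were most like the members were found by the root mean square (RMS) difference of log2 CPM, each gene centred on its mean, among 9251 genes with at least 5 CPM on average. The libraries share their groups and batches, so a small difference says no more than that the genes varied alike here. For Acod1 the nearest were Il1rn, the interleukin 1 receptor antagonist (RMS difference 0.32), Aoah, which deacylates lipopolysaccharide (0.35), the formyl peptide receptors Fpr1 and Fpr2 (0.36 each), the lectin receptor Clec4a2 (0.37) and the guanylate-binding protein Gbp6 (0.40). A flat profile would differ from Acod1 by 1.18. Il1rn stood at 40.4, 72.2, 107 and 62.3 CPM in batches 1 to 4 with full-length NfL, at 16.8, 31.6, 50.2 and 27.6 CPM with coiled-coil NfL and at 21.8, 8.34, 41.7 and 5.79 CPM with vehicle. It shared with Acod1 the high vehicle values of batches 1 and 3 and the high full-length value of batch 3.

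For Slc13a3 the nearest were Siglece, an inhibitory sialic acid receptor (0.89), Cd300e, an activating myeloid receptor (0.96), Lox, lysyl oxidase (1.12), the chemokine Ccl5, complement factor Cfb and the adhesion receptor Adgrg6 (1.29 each). A flat profile would differ by 2.49, so the likeness was looser than for Acod1. Siglece stood at 161, 190, 134 and 164 CPM in batches 1 to 4 with full-length NfL, at 13.7, 58.0, 39.2 and 53.5 CPM with coiled-coil NfL and at 18.6, 5.24, 7.19 and 5.84 CPM with vehicle. As with Slc13a3, the vehicle library of batch 1 was the high one, and batch 2 was the highest with either NfL form. Lox repeated the vehicle pattern, at 65.1, 14.5, 15.9 and 11.5 CPM. Acod1 and Slc13a3 themselves differed by 1.65, and Slc13a3 was in place 8949 of 9251 by nearness to Acod1. This measure also counts the size of the changes, which was larger for Slc13a3 (SD of log2 CPM 2.60, against 1.23 for Acod1). Even a flat profile, at 1.18, would be nearer to Acod1 than Slc13a3 was. The place therefore does not show that the members rose and fell in different libraries.

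**Figure D3:**
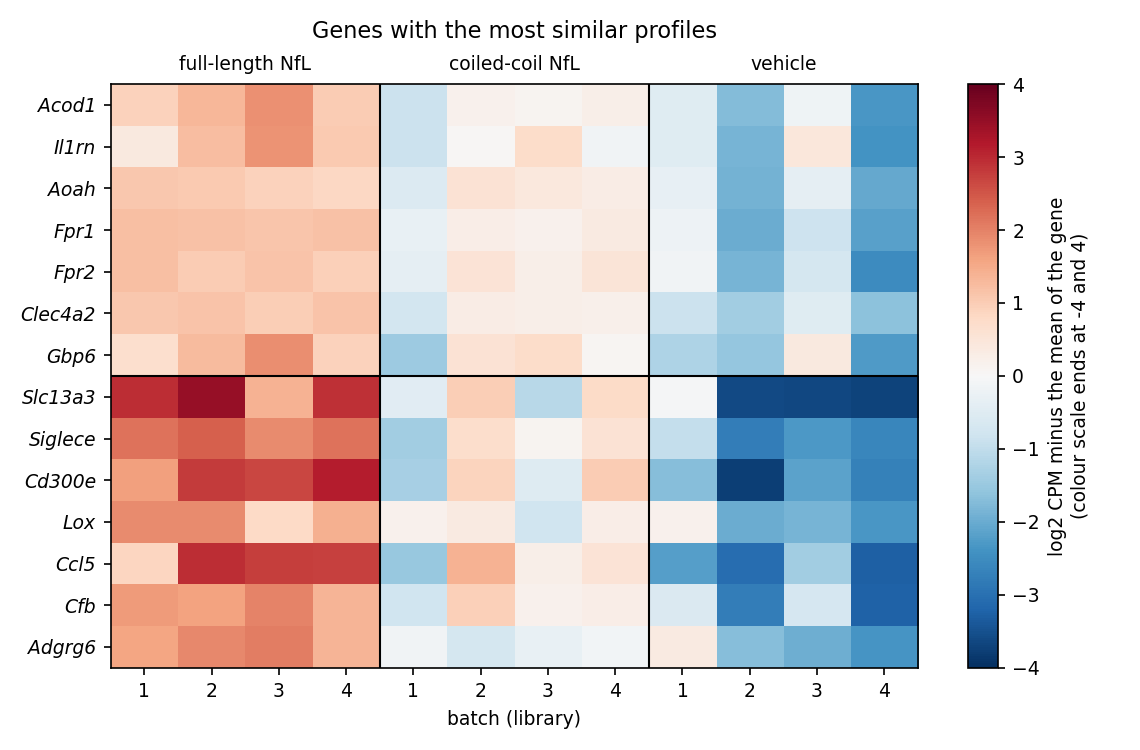
Log2 CPM, centred on the mean of each gene, shown as colour (red high, blue low) in the 12 libraries for Acod1 and Slc13a3, each followed by the 6 genes nearest to it by RMS difference. The 6 genes nearest to Acod1 keep within 0.32 to 0.40 of it on average, and those nearest to Slc13a3 within 0.89 to 1.29.

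Other steps that carry or use itaconate were tested gene by gene with edgeR's quasi-likelihood test, with Benjamini-Hochberg adjustment across the 14687 genes and a threshold of 0.05. With full-length NfL, 2 of 13 tested genes of the list rose and 0 fell against vehicle: Slc25a10 and Suclg1. Of all tested genes, 24.9% were called in this comparison, 14% higher and 10.9% lower. Of called genes, 56.4% were higher with TMM scaling and 45.8% with upper-quartile factors, and the 3656 calls came to 2384 and 2417 without full-length replicate 2 or vehicle replicate 4. The median log2 fold change of the list was 0.08, against −0.02 over all tested genes. With the replicate block, 3 rose and 1 fell, beside 43.8% of all genes called (21.4% higher, 22.4% lower).

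Slc25a10, the mitochondrial carrier that exchanges malate and succinate for phosphate, stood at 214, 197, 163 and 198 CPM in batches 1 to 4 with full-length NfL, at 65.6, 118, 89.5 and 119 CPM with coiled-coil NfL and at 67.2, 58.7, 67.0 and 60.6 CPM with vehicle. All full-length libraries were above all others, and vehicle libraries lay close together. It rose with full-length NfL by 1.61 ± 0.17 on the log2 scale (SE, edgeR adjusted p = 0.000386). Full-length over coiled-coil NfL was 0.98 ± 0.16 (adjusted p = 0.0140, edgeR), a call lost without full-length replicate 2 or 4 (highest adjusted p = 0.0607). Coiled-coil NfL over vehicle was 0.63 ± 0.16 (adjusted p = 0.621, edgeR), above vehicle in 3 of 4 batches, with batch 1 again the exception.

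Suclg1, a subunit of the succinyl-CoA synthetase that can load itaconate onto coenzyme A, stood at 62.4, 65.3, 65.7 and 64.7 CPM with full-length NfL, at 47.5, 55.9, 49.6 and 59.3 CPM with coiled-coil NfL and at 48.8, 45.8, 50.9 and 43.6 CPM with vehicle. The full-length libraries were again above all others. It rose with full-length NfL by 0.45 ± 0.08 on the log2 scale (SE, adjusted p = 0.00245, edgeR). Its partner subunits Suclg2 (−0.21 ± 0.09, adjusted p = 0.110) and Sucla2 (0.13 ± 0.07, adjusted p = 0.202) were not called by edgeR.

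The other carriers were not called with full-length NfL against vehicle. The 2-oxoglutarate carrier Slc25a11 averaged 143 CPM with full-length NfL, 138 with coiled-coil NfL and 125 with vehicle (log2 fold change of full-length NfL over vehicle 0.19 ± 0.07, edgeR adjusted p = 0.0574, or 0.0318 with the replicate block). The citrate carrier Slc25a1 averaged 64.6, 62.6 and 62.2 CPM. Abcg2, an exporter linked to itaconate, averaged 23.8, 26.8 and 26.2 CPM. Rab32, a GTPase that delivers itaconate to vacuoles holding bacteria, averaged 345, 328 and 313 CPM. Its exchange factor subunits averaged 34.3, 33.7 and 36.8 CPM for Hps1 and 31.2, 34.2 and 35.3 CPM for Hps4, which was called lower only with the block (−0.18 ± 0.07, edgeR adjusted p = 0.104, or 0.0484 with the block).

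Enzymes that break itaconate down were not called with either NfL form: Auh averaged 17.6 CPM with full-length NfL, 17.5 with coiled-coil NfL and 18.1 with vehicle, and Clybl 6.67, 6.72 and 6.33 CPM. Sugct, a coenzyme A transferase, was under 1 CPM in every library. Oxgr1, a receptor for itaconate on other cells, had reads in 1 of the 12 libraries, at 0.0402 CPM, and was not tested. Among the other Slc13 carriers, Slc13a1 and Slc13a5 had no reads in any library, Slc13a2 averaged 0.290, 0.322 and 0.305 CPM, and Slc13a4 reached at most 0.679 CPM, so at these depths Slc13a3 was the only family member above 1 CPM.

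**Figure D4:**
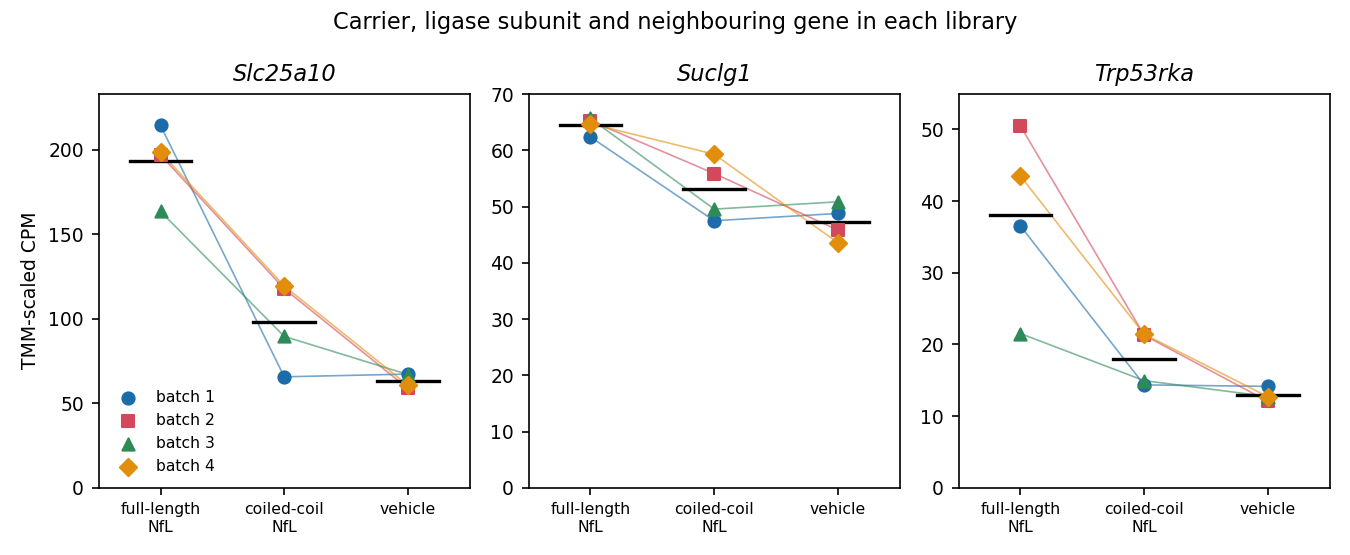
TMM-scaled CPM in each library, by group, for Slc25a10, Suclg1 and Trp53rka, a neighbour of Slc13a3, each on its own axis from 0, with a line per batch and a black bar at the mean. The lowest full-length library is above the highest vehicle library in each panel, for example 163 CPM against 67.2 CPM for Slc25a10.

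The TCA cycle supplies the substrate of Acod1. With full-length NfL, 10 of 23 tested genes of the cycle rose and 0 fell against vehicle, beside 14% and 10.9% of all tested genes, and the median log2 fold change of the list was 0.22, against −0.02 over all. Sdhb, the iron-sulfur subunit of succinate dehydrogenase, averaged 135 ± 7.52 CPM with full-length NfL, 105 ± 14.1 with coiled-coil NfL and 81.0 ± 11.3 with vehicle (SD, n = 4 each). It rose by 0.74 ± 0.11 on the log2 scale (SE, adjusted p = 0.00141, edgeR). Mdh2, malate dehydrogenase, rose by 0.58 ± 0.08 (adjusted p = 0.000908), and Cs, citrate synthase, by 0.48 ± 0.07 (adjusted p = 0.00151, edgeR for both). Mdh2 stood at 237, 233, 206 and 231 CPM in batches 1 to 4 with full-length NfL, at 165, 186, 158 and 184 CPM with coiled-coil NfL and at 168, 147, 150 and 140 CPM with vehicle. All full-length libraries were above all others, with batch 3 the lowest of them as for Slc13a3.

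Sdhc, Dlst, Ogdh, Pdha1, Idh3a and Dld were also called higher. In the 12 fits that left out 1 library, the call of Dld was lost in 6 (full-length replicates 2, 3 and 4 and vehicle replicates 1, 2 and 4), with a highest edgeR adjusted p of 0.103. That of Idh3a was lost in 4 (full-length replicates 1, 2 and 4 and vehicle replicate 1; highest 0.0607), and that of Pdha1 without full-length replicate 3 (0.0509). Changes were small beside those of Acod1 and Slc13a3: the largest of the named ones was a fold of 1.67, for Sdhb. Between the NfL forms 2 of the 23 were called, Mdh2 (0.39 ± 0.08, adjusted p = 0.0311) and Dlst (0.29, adjusted p = 0.0328), both higher with full-length NfL by edgeR, beside 2.72% of all tested genes called (1.38% higher, 1.34% lower). Both calls were lost without full-length replicate 2 or 4 or coiled-coil replicate 1, 3 or 4. With the block 7 were called, all higher, beside 19.1% of all genes (8.99% higher, 10.1% lower).

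**Figure D5:**
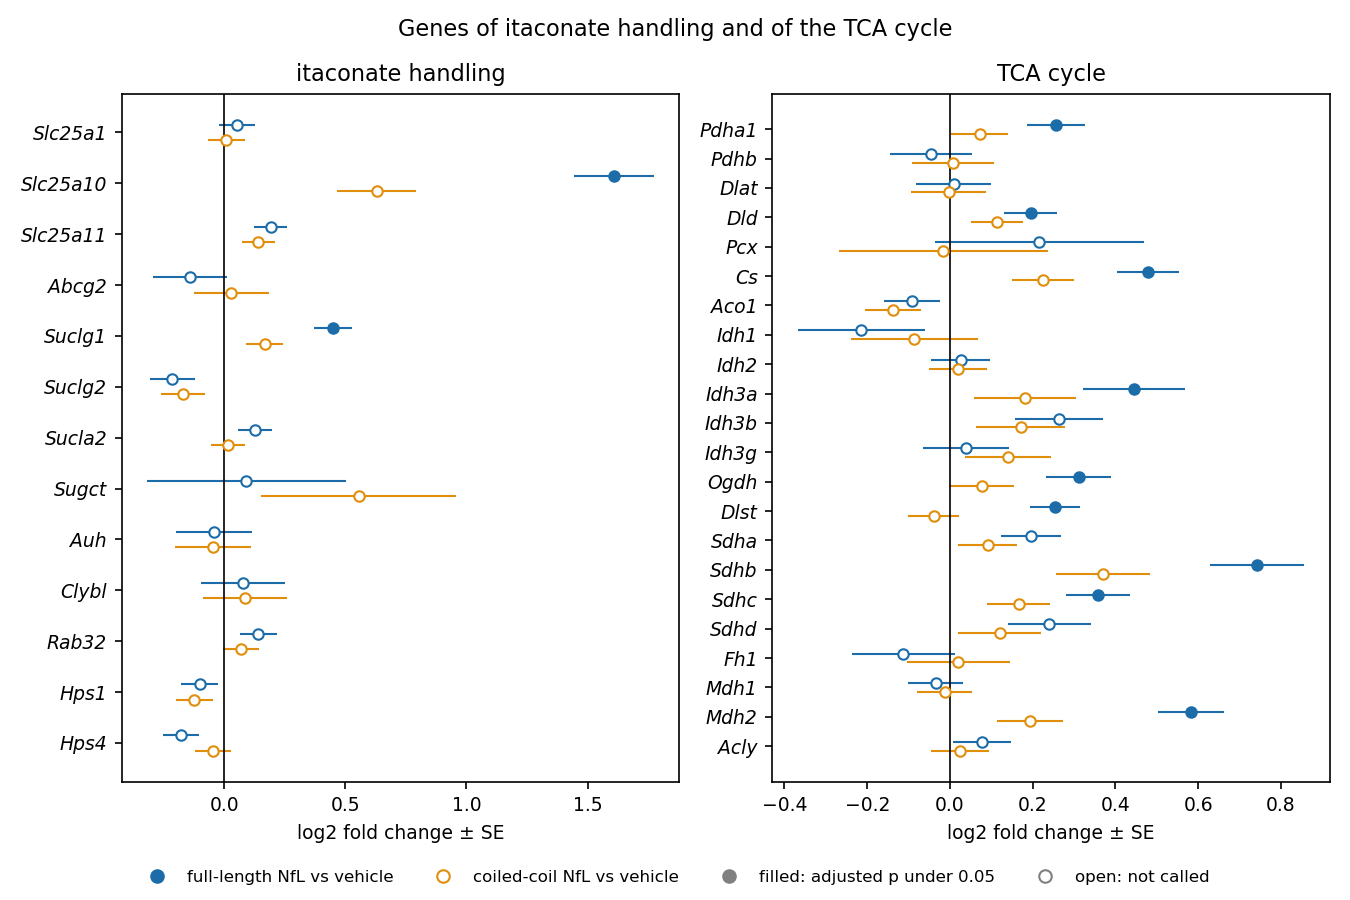
Log2 fold change with SE for tested genes of itaconate handling and the TCA cycle reported here, for full-length NfL over vehicle (blue) and coiled-coil NfL over vehicle (orange), with filled points for called genes. TCA cycle genes lie mostly to the right of 0 with full-length NfL (every called one higher), whereas no gene of either list is called with coiled-coil NfL.

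Receptors and factors known to act upstream of Acod1 were called about as often as all tested genes. With full-length NfL, 3 of 21 tested genes rose and 2 fell against vehicle, close to the 24.9% of all genes called, and the median log2 fold change was −0.03. Myd88 and Ticam1, the adaptors of Toll-like receptors, each rose by 0.67 ± 0.15 on the log2 scale (adjusted p = 0.00823 and 0.00782, edgeR). The receptor genes Tlr2, Tlr4 and Cd14 and the NF-kB genes Nfkb1 and Rela were among the 16 not called. Irf7, an interferon regulatory factor that interferon itself induces, stood at 846, 2034, 2227 and 1833 CPM in batches 1 to 4 with full-length NfL, at 351, 1754, 1071 and 1232 CPM with coiled-coil NfL and at 258, 487, 795 and 247 CPM with vehicle. Batch 1 was low in both NfL groups. Irf7 rose by 1.96 ± 0.50 with full-length NfL (SE, adjusted p = 0.0149, edgeR).

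The interferon receptor chains Ifngr1 and Ifnar2 fell by 0.50 ± 0.11 (adjusted p = 0.00725) and 0.26 ± 0.08 (adjusted p = 0.0339) on the log2 scale with full-length NfL in edgeR's test, and the call of Ifnar2 was lost in 6 of the 12 fits that left out 1 library (full-length replicates 1 and 4 and each vehicle replicate). Ifngr1 averaged 188 ± 26.9 CPM with full-length NfL, 263 ± 26.8 with coiled-coil NfL and 267 ± 21.3 with vehicle (SD, n = 4 each). Full-length over coiled-coil NfL was −0.48 ± 0.11 for Ifngr1 (adjusted p = 0.0417, edgeR), the 1 gene of this list called there, and that call was lost in 8 of the 12 fits, full-length replicates 2 and 4 among the libraries left out. With the replicate block, 8 genes of the list rose and 5 fell against vehicle, beside 21.4% and 22.4% of all tested genes.

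Of genes listed as targets of itaconate or of NRF2, 9 of 19 tested rose with full-length NfL against vehicle and 3 fell, beside 14% and 10.9% of all tested genes, with a median log2 fold change of 0.52, against −0.02 over all tested genes. Nfkbiz, which encodes IkB-zeta, a regulator of NF-kB target genes that itaconate derivatives are known to lower in macrophages, rose by 1.56 ± 0.23 (adjusted p = 0.00110), and the glycolytic enzymes Ldha and Aldoa, whose proteins itaconate modifies, rose by 0.58 ± 0.08 (adjusted p = 0.00102) and 0.74 ± 0.17 (adjusted p = 0.0102, edgeR for all). Ldha and Aldoa have processed pseudogenes, so their counts are uncertain, and Gapdh, which has many, had too few reads to be tested. Leaving out full-length replicate 2 or 4 or vehicle replicate 2 brought the count of 12 called genes to 6, 7 and 7. The calls over all tested genes moved as well. They were 3656 with all libraries and, with 1 library left out, from 2384 (without full-length replicate 2) to 4084.

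Hmox1, the heme-degrading enzyme that NRF2 switches on, stood at 1569, 2395, 840 and 1913 CPM in batches 1 to 4 with full-length NfL, at 858, 923, 510 and 884 CPM with coiled-coil NfL and at 918, 468, 512 and 546 CPM with vehicle. As for Slc13a3, batch 2 was the highest and batch 3 the lowest full-length library, and vehicle was high in batch 1. It rose by 1.46 ± 0.31 on the log2 scale (SE, adjusted p = 0.00692, edgeR). Nfe2l2, the gene of NRF2 itself, fell by 0.51 ± 0.11 (adjusted p = 0.00790), and Tet2, a dioxygenase that itaconate inhibits, fell by 0.34 ± 0.08 (adjusted p = 0.00999, edgeR for both). The 7 tested genes of the target list that edgeR did not call were Keap1, Stat6, Nqo1, Gclm, Gclc, Slc7a11 and Atf3. Srxn1, Osgin1, Txnrd1, Gsr and Ripk3 were also called higher. In the 12 fits that left out 1 library, these calls were lost in 5, 2, 9, 8 and 6. Nlrp3 was called lower, a call lost in 4.

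Coiled-coil NfL over vehicle gave no called gene in any of these lists, and 0 of all 14687 tested genes (0%) were called by edgeR; 1082 (7.37%) had an unadjusted p under 0.05, and DESeq2 called 33. With the block 2 genes were called (0.0136%), 1 higher and 1 lower (0.00681% each), neither of them in these lists. At that unadjusted level there were 1 gene of the handling list, 3 of the TCA cycle, 2 inducers and 1 target, and DESeq2 called 0 in each. The genes with the smallest p were Sdhb (0.37 ± 0.11, adjusted p = 0.646), Irf7 (1.30 ± 0.49, adjusted p = 0.662) and Nfkbiz (0.58 ± 0.22, adjusted p = 0.668, edgeR for all) for the TCA, inducer and target lists. Without coiled-coil replicate 1, 26 genes were called, Slc25a10 among them. The median log2 fold changes of the 4 lists were 0.03, 0.08, −0.01 and 0.14, against 0.00393 over all tested genes.

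Full-length over coiled-coil NfL gave 399 called genes of all tested (2.72%, with 1.38% higher and 1.34% lower), and 32 or 37 without full-length replicate 2 or 4. Beside Slc25a10, Mdh2, Dlst and Ifngr1, it called 2 of 19 tested targets, both higher with full-length NfL. These were Ldha (0.42 ± 0.08, adjusted p = 0.0245) and Nfkbiz (0.98 ± 0.22, adjusted p = 0.0417, edgeR for both). The call of Ldha was lost in 5 and that of Nfkbiz in 7 of the 12 fits that left out 1 library. Among these were the fits without coiled-coil replicate 1, 3 or 4. Leaving out full-length replicate 2 or 4 brought the calls of each of the 4 lists to 0. With the replicate block the target list had 9 higher and 2 lower, beside 8.99% and 10.1% of all tested genes. Hmox1 was 1.08 ± 0.31 (edgeR adjusted p = 0.0792, or 0.00975 with the block).

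Genes that lie next to Acod1 and Slc13a3 on their chromosomes were also read. Kctd12, a protein-coding gene 64339 bases from Acod1, averaged 237 ± 53.4 CPM with full-length NfL, 146 ± 35.1 with coiled-coil NfL and 144 ± 25.7 with vehicle (SD, n = 4 each). It rose by 0.72 ± 0.19 on the log2 scale against vehicle with full-length NfL (SE, adjusted p = 0.0184, edgeR).

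Trp53rka, a kinase gene 16879 bases upstream of Slc13a3, stood at 36.5, 50.5, 21.5 and 43.5 CPM in batches 1 to 4 with full-length NfL, at 14.4, 21.3, 14.9 and 21.4 CPM with coiled-coil NfL and at 14.1, 12.1, 12.7 and 12.7 CPM with vehicle. As with Slc13a3, batch 2 was the highest and batch 3 the lowest full-length library. It rose by 1.56 ± 0.23 against vehicle (adjusted p = 0.00116, edgeR), but has a near-identical copy, Trp53rkb, and its counts are uncertain. Full-length over coiled-coil NfL was 1.08 ± 0.22 (adjusted p = 0.0334, edgeR), a call lost in 6 of the 12 fits that left out 1 library, full-length replicates 2 and 4 among them. Ocstamp, 4622 bases downstream of Slc13a3, stayed under 1.5 CPM in every library and was not tested. The antisense gene Gm14437 overlaps Slc13a3 and had reads in 1 library, at 0.0474 CPM; how the counting treated strand is not given in the sources used here.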

How the data were processed

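The authors deposited raw read counts per Ensembl gene for 12 libraries, made with a stranded mRNA kit and 50-base single reads per the labels' protocols. Reads were aligned to GRCm38 with GSNAP, per the submitters' processing notes; the aligner version, counting tool, gene models and strand handling were not given in the sources used here. Symbols (99.6% of identifiers), lengths and coordinates came from GENCODE M21, and promoters from RefSeq (both members matched). Genes passing filterByExpr (14687 kept, 37949 removed) were scaled with TMM and fitted with edgeR 4.0.16 (R 4.3.3) in 1 quasi-likelihood model of 3 groups and 9 residual degrees of freedom, with two-sided tests and Benjamini-Hochberg adjustment at 0.05. Standard errors came from the F statistic, and log2 CPM used a prior count of 2. On simulated counts for 14436 genes, 93% of genes changed by 1 and 93% of those changed by 2 on the log2 scale were recovered for full-length NfL over vehicle. The changes were set only in genes above 5 CPM on average, and the simulated libraries were independent, with no batches. These shares check the code and do not give the power of the tests in the real libraries.

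The members and lists were chosen with earlier results of these data known. Genes are named by a rule: all handling and Slc13 genes, the called members of smallest p in each other list (up to 4 in its main direction and 2 in the other), the neighbours, and the 6 nearest profiles of each member. Other called TCA genes, Dlst among them, were named after their values were seen. So were the upstream genes that were not called and the targets beyond the rule. Some named genes are left out of the text, though the counts include them.

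Batches pair the replicate numbers, per the labels: after removal of group means, same-number libraries correlated at 0.306 to 0.735 (12 of 12 pairs over 0.1) and others at −0.461 to 0.445. The main test left this pairing out and treated the libraries as independent. Alternatives were other scaling factors, no filter, DESeq2 1.42.0, the replicate block (6 residual degrees of freedom), which uses the pairing, and leaving out each library.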

Additional observations from a re-analysis of the deposited data

Results flagged for a closer look

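In 7 of the 87 groups of 4 libraries checked, 1 library stood apart from the other 3 of its group by more than 0.829 of the range. Chance gives this in about 1 in 20 groups. The groups checked were those of Acod1, Slc13a3, the handling genes and the genes of the other lists named by the rule. Vehicle replicate 1 had 358 CPM of Slc13a3, against 28.2 to 30.0 CPM in the other vehicle libraries. Vehicle replicate 3 had 145 CPM of Ifnar2, against 125 to 126. Full-length replicate 3 was low for Mdh2, at 206 CPM against 231 to 237 in the other full-length libraries, and high for Abcg2, at 31.4 CPM against 20.8 to 21.8. Myd88 stood at 161 CPM in full-length replicate 1, against 189 to 190, and Ldha at 243 CPM in full-length replicate 2, against 219 to 221. Coiled-coil replicate 3 had 510 CPM of Hmox1, against 858 to 923 in the other coiled-coil libraries.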

How the results depend on the processing

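The fold changes of Acod1 and Slc13a3 kept their direction under every alternative run; the balance of all called genes did not, since for full-length NfL over vehicle 56.4% of called genes were higher with TMM but 45.8% with upper-quartile factors, and with the replicate block 21.4% of tested genes were higher and 22.4% lower. Log2 fold changes of Acod1, with 1 library left out at a time, were 2.00 to 2.64 for full-length NfL over vehicle, 0.64 to 1.29 for coiled-coil NfL over vehicle and 1.13 to 1.47 between the NfL forms. Those of Slc13a3 were 4.26 to 6.51, 1.67 to 3.94 and 2.29 to 2.92, the highest values over vehicle coming without vehicle replicate 1. With the replicate block, which follows the batch pairing, they were 2.32, 1.03 and 1.28 for Acod1 and 5.08, 2.61 and 2.47 for Slc13a3; among single genes it added 12 calls and removed 0.

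For full-length NfL over vehicle, the block called 6432 genes in place of 3656, 4 handling genes in place of 2 and 13 inducers in place of 5, and DESeq2 called 8 inducers. With 1 library left out, the counts were 2384 to 4084 over all genes, 2 to 3 for handling, 8 to 13 for the TCA cycle, 4 to 7 for inducers and 6 to 12 for targets; over all genes the low counts came with full-length replicate 2 (2384) or vehicle replicate 4 (2417) left out.

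For coiled-coil NfL over vehicle, where 0 genes were called, the block called 2 and DESeq2 33; without coiled-coil replicate 1 there were 26, 1 of them a handling gene. Leaving out libraries gave 0 to 26 over all genes, 0 to 1 for handling and 0 for the other lists.

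For full-length over coiled-coil NfL, DESeq2 called 1425 genes and the block 2806, in place of 399. By DESeq2 and by the block, the counts were 2 and 2 for handling (1 in the main test), 5 and 7 for the TCA cycle (2, and 1 with no filter), 2 and 4 for inducers (1) and 6 and 11 for targets (2). With 1 library left out they were 32 to 601 over all genes, 0 to 1 for handling, 0 to 2 for the TCA cycle, 0 to 1 for inducers and 0 to 4 for targets. Over all genes, the count was 32 when full-length replicate 2 was left out, 37 when replicate 4 was, 90 without coiled-coil replicate 1 or 3, 169 without coiled-coil replicate 4, 215 and 249 without vehicle replicates 2 and 4, and 601 without full-length replicate 1. The causes of these differences were not tested. Of 1614 values of single genes under the alternatives, 1546 kept their side of the threshold, 40 lost a call and 28 gained one; 49 values, of 18 gene comparisons within 0.12 of 0 on the log2 scale, changed sign, and 0 of these were called under either setting. With 4 libraries a group and uneven vehicle libraries, differences between coiled-coil NfL and vehicle may be missed. An estimate as large as that of Irf7, given above, was not called. How often real differences of that size would be missed was not measured.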
